A study of Mus musculus with 6 samples.

Results

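The genes Jun, Junb, Fosl1, Srf, Hif1a and Cited2 encode transcription regulators that respond to mechanical load or to low oxygen, and they were followed in reloaded mouse soleus muscle. They were chosen by name, as the probes that the platform annotation assigns to these genes, and each gene had 1 probe, which gives 6 of the 223 probes and 6 of the 203 named genes on the array. All 6 samples were soleus muscle, a postural muscle of the hindlimb, from mice of the 129/SV strain labelled WT. Each animal had its hindlimbs unloaded by suspension for 7 days and then bore weight again for 1 day. The age and sex of the animals were not given in the labels used here. All samples belong to this 1 group, so the data give levels and their spread between mice, and neither unloading nor reloading could be tested for an effect. Samples go here by their title numbers, 175, 176, 177, 178, 202 and 203.

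Jun, Junb and Fosl1 encode subunits of AP-1, a transcription factor built as a dimer of one Jun family protein with another Jun or a Fos family protein, and several of its genes are induced quickly by growth factors, stretch and stress. Srf encodes serum response factor, which binds CArG boxes and controls actin, sarcomere and immediate early genes. Hif1a encodes the oxygen-regulated subunit of hypoxia-inducible factor, which pairs with the product of Arnt and is controlled mainly by the stability of its protein. Cited2 encodes a cofactor, itself induced through hypoxia-inducible factor, that competes with it for the coactivators encoded by Ep300 and Crebbp. RNA levels therefore report only part of the activity of these factors.

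Signals are given in parts per mille of the summed signal of 221 probes on each array, a scale read from the values. The floor of an array is the 10th percentile of its 223 probes. It was 0.6 per mille in samples 175, 176 and 203, 0.7 in samples 177 and 178, and 0.5 in sample 202. A signal of at least 2 times that floor is called clear of it. Values move in steps of 0.1 per mille. Samples 202 and 203 stood apart from the rest. Their log2 signals over all probes correlated with those of the other arrays at r from 0.956 to 0.975 (8 pairs), while pairs within 175 to 178 and the pair 202 and 203 gave r from 0.979 to 0.993 (7 pairs). These correlations are across probes, which are not independent. What the runs of title numbers stand for is unstated. With 1 array per mouse, spread between mice and spread between arrays cannot be told apart, and the deposited values came from muscle sections, in which fewer cells of a type and less RNA per cell cannot be told apart.

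Markers of muscle fibres and of other cell types were read beside the labelled tissue. All 8 measured muscle fibre markers exceeded the floor clearly in every mouse, and their summed signal ran from 240 to 302 per mille. Among them were myoglobin (Mb) and the myosin heavy chains Myh7, Myh1, Myh2 and Myh4. The means of these myosins were 69.1, 40.8, 22.95 and 13.2 per mille. Which muscle the fibres came from was not tested. Of other cell types, 4 endothelial markers were measured, with a summed signal of 4.4 to 7.2 per mille. The only fat cell marker, Fabp4, gave 3.5 to 6.8 per mille, the only leukocyte marker, Il1b, 0.5 to 0.7, and the fibroblast markers Fn1 and Pdgfra together 1.9 to 3.1. Il1b was clear of the floor in no mouse, and the defining markers of red cells and Schwann cells were not measured.

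Among the 6 regulators, Jun, Srf and Cited2 reached at least 2 times the floor in each of 6 mice, and Junb, Fosl1 and Hif1a were clear in none. Over the whole array 25.6% of probes were clear in all mice and 54.3% in none. At this limit Jun was clear in all mice but neither Junb nor Fosl1 was, and Cited2 was but not Hif1a. At 3 times the floor 0 of the 6 were clear in all mice. A signal near the floor decides neither for nor against expression, and levels of different probes are not ranked here, because spots differ in how well they hybridize.

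**Figure D1:**
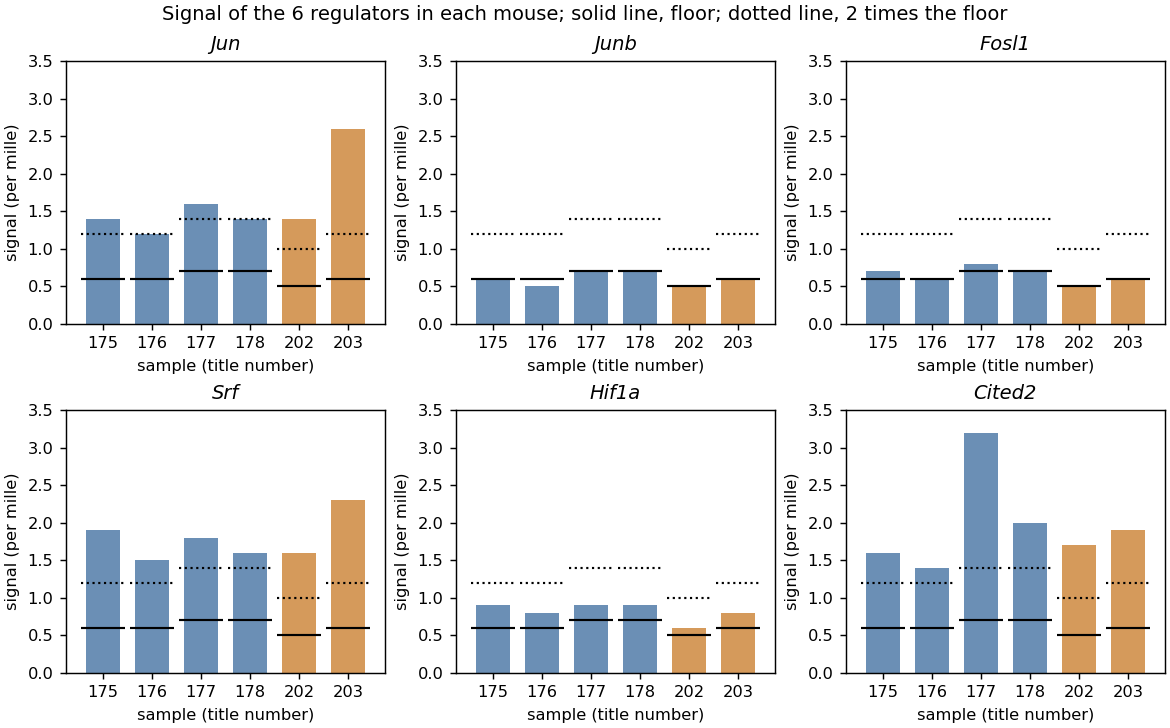
Bars give the signal of each regulator in each of the 6 mice in parts per mille, with samples 175 to 178 in blue and 202 and 203 in orange. The solid line is the floor of that array and the dotted line 2 times the floor; Jun, Srf and Cited2 reach the dotted line in every mouse, and Junb, Fosl1 and Hif1a in none.

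Jun, the AP-1 subunit that also activates its own promoter, gave 1.4, 1.2, 1.6, 1.4, 1.4 and 2.6 per mille in samples 175, 176, 177, 178, 202 and 203. The other mice lay close together and sample 203 lay well above them. The mean was 1.6 ± 0.506 per mille (SD, n = 6), or 2.63 ± 0.887 times the floor (SD, n = 6). In samples 176 and 178 the signal was exactly 2 times the floor, so that Jun sat at the limit there. Without samples 202 and 203 the mean was 1.40 ± 0.163 per mille (SD, n = 4). In sample 203 Jun stood 0.90 above its mean in the other 5 mice on the log2 scale, and 9 of the 223 probes on that array showed a larger rise; the median over all probes was 0.03. The sequence before the start of Jun is shown because it holds the variant AP-1 site for which this promoter is known. It covers the 250 bases upstream of the start, taken from the RefSeq table for GRCm38.p6 at chr4:95052223-95052472 on the minus strand, and the capitals mark TGACATCA, 38 to 45 bases before the start.
Jun: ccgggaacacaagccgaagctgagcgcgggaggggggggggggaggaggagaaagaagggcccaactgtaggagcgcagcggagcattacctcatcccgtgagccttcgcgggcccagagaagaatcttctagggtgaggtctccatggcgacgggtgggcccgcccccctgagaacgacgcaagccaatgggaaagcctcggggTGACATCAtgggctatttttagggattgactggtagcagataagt
The same letters, searched on both strands, occurred in 2.93% of 32851 such windows. TGANTCA, which covers the usual AP-1 site and allows any base at N, occurred in 6.75%. TGANTCA had no match in the Jun window. A match is a description of the letters and not evidence that a factor is bound.

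The other AP-1 members lay at the floor. Junb, a Jun relative that often has weaker transactivating activity, gave 0.6, 0.5, 0.7, 0.7, 0.5 and 0.6 per mille in samples 175, 176, 177, 178, 202 and 203. It equalled the floor in 5 mice and fell below it in sample 176. Its mean of 0.6 ± 0.0894 per mille (SD, n = 6) spans only 2 steps of the scale. Fosl1, which encodes the Fos family protein Fra-1, a partner without a strong activation domain of its own, gave 0.7, 0.6, 0.8, 0.7, 0.5 and 0.6 per mille in the same order. It equalled the floor in 4 mice and exceeded it by 1 step in samples 175 and 177, with a mean of 0.650 ± 0.105 per mille (SD, n = 6). Of 9 further AP-1 and immediate early genes looked for, 2 were measured. Jund, the Jun family member usually present without stimulation, gave 1.2, 1.0, 1.9, 1.8, 1.1 and 1.5 per mille in that order and was clear of the floor in 5 of 6 mice. Fosl2, a second Fos relative, gave 0.8, 0.7, 1.0, 0.9, 0.9 and 1.1 per mille and was clear in none.

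Srf gave 1.9, 1.5, 1.8, 1.6, 1.6 and 2.3 per mille in samples 175, 176, 177, 178, 202 and 203. Sample 203 was again the highest, by a smaller margin than for Jun. The mean was 1.78 ± 0.293 per mille (SD, n = 6), or 2.93 ± 0.579 times the floor (SD, n = 6), and 1.70 ± 0.183 per mille (SD, n = 4) without samples 202 and 203. In sample 203 Srf stood 0.46 above its mean in the other mice on the log2 scale, and 25 of 223 probes there showed a larger rise. Its upstream window is shown because it holds a pair of CArG boxes, the site that serum response factor itself binds. It lies at chr17:46556163-46556412 of GRCm38.p6 on the minus strand (RefSeq), and the capitals mark the CArG boxes, 73 to 82 and 53 to 62 bases before the start. The annotated span of Srf also covers this window, because a longer model begins further upstream.
Srf: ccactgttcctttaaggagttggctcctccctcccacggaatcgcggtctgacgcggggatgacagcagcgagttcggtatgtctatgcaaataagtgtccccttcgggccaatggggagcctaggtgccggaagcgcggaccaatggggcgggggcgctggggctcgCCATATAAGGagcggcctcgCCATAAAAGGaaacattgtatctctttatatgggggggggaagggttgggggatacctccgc
A CArG box occurred in 1.47% of the 32851 windows. Neither the Jun nor the Cited2 window held one.

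Hif1a gave 0.9, 0.8, 0.9, 0.9, 0.6 and 0.8 per mille in samples 175, 176, 177, 178, 202 and 203. It lay 1.2 to 1.5 times the floor, above it in every mouse yet below the limit of 2 times, and sample 202 was the lowest. The mean was 0.817 ± 0.117 per mille (SD, n = 6), and 0.875 ± 0.05 (SD, n = 4) without samples 202 and 203. In sample 202 Hif1a stood 0.52 below its mean in the other mice on the log2 scale (-0.52), where the median over all probes was -0.34 and 56 of 223 probes showed a larger drop. Sample 202 also had the lowest floor. Of the 8 partners and regulators of hypoxia-inducible factor looked for, 2 were measured. Arnt, the dimer partner, gave 1.4, 1.1, 1.2, 1.1, 1.1 and 1.3 per mille in that order and was clear of the floor in 3 mice. Vhl, which marks the factor for degradation when oxygen is present, gave 0.5, 0.5, 0.6, 0.7, 0.4 and 0.5 per mille and was clear in none.

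Cited2 gave 1.6, 1.4, 3.2, 2.0, 1.7 and 1.9 per mille in samples 175, 176, 177, 178, 202 and 203. Sample 177 stood far above the others, which lay between 1.4 and 2.0. The mean was 1.97 ± 0.641 per mille (SD, n = 6), or 3.17 ± 0.783 times the floor (SD, n = 6), and 2.05 ± 0.806 per mille (SD, n = 4) without samples 202 and 203. In sample 177 Cited2 stood 0.91 above its mean in the other mice on the log2 scale, against a median of 0.17 over all probes, and 0 of the 223 probes showed a larger rise. On the same array the muscle fibre markers had their lowest sum, 240 per mille against 249 to 302 in the others. They did not move together: Myh7, Myh1, Myh4, Mb and Ttn were each lowest there. Myh2 and Car3 were not, and Des, at 49.7 per mille, was highest there. The part of these markers in the Cited2 value was not tested. The upstream window of Cited2 is shown because the gene is a known target of hypoxia-inducible factor. It lies at chr10:17722978-17723227 of GRCm38.p6 on the plus strand (RefSeq), and the capitals mark ACGTG, the core of a hypoxia response element, which matched on both strands in overlap, 148 to 153 bases before the start.
Cited2: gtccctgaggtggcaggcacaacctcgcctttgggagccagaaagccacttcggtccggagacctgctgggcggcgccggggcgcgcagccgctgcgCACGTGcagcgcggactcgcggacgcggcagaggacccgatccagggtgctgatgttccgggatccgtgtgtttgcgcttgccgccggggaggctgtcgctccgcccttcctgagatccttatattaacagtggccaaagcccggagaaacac
ACGTG occurred in 16.6% of the 32851 windows and GCGTG, the other core searched, in 28.2%, so such matches are common. Windows were found for 5 of the 6 regulators. The Hif1a window also held ACGTG and the Junb window GCGTG, and the Jun and Srf windows held neither.

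The spread between mice was widest in the hypoxia cofactor and in Jun. Over the 6 mice the SD of log2 signal was 0.41 for Cited2 and 0.39 for Jun, against a median of 0.27 over all 223 probes and 0.29 over the 57 probes clear in all mice. Of those 57, 12 varied more than Cited2 and 15 more than Jun. Each value came largely from 1 mouse: without sample 177 the SD of Cited2 was 0.20, and without sample 203 that of Jun was 0.15. Srf varied less, with an SD of 0.23, and 35 of the 57 probes varied more; without sample 203 it was 0.14. The near-floor regulators had SDs of 0.22 for Junb, 0.24 for Fosl1 and 0.23 for Hif1a, close to the median of 0.24 for the 121 probes clear in no mouse; that of Hif1a was 0.09 without sample 202. Rounding to the step of 0.1 per mille alone gives an SD of 0.07 at the level of Junb, 0.06 at that of Fosl1 and 0.05 at that of Hif1a. With each array divided by its floor these 3 SDs came to 0.11 each, and those of Jun, Srf and Cited2 to 0.42, 0.28 and 0.34.

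**Figure D2:**
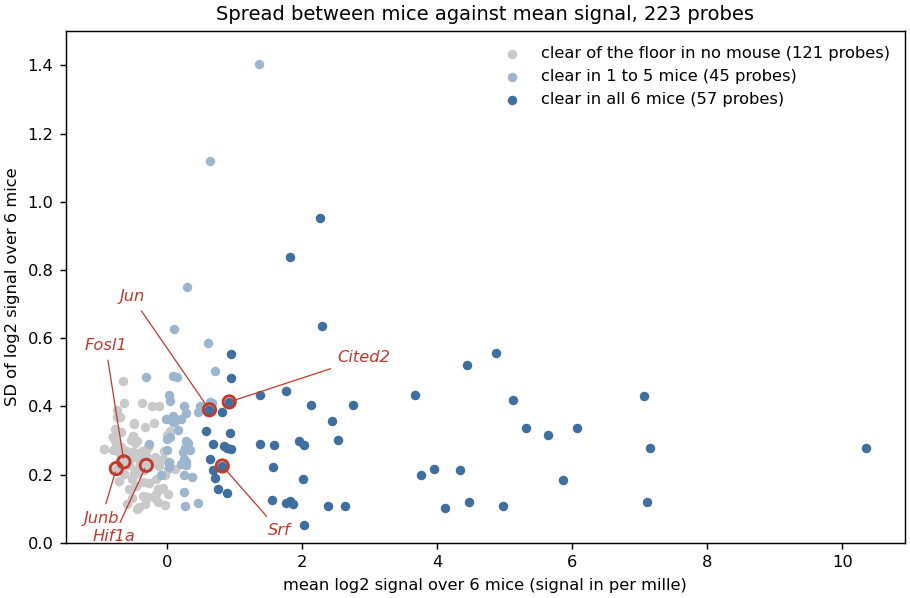
Each point is 1 of 223 probes, with its mean log2 signal over 6 mice on the x axis and the SD of its log2 signal on the y axis; shades show in how many mice a probe was clear of the floor, and red rings mark the 6 regulators. Cited2 (0.41) and Jun (0.39) lie above most clear probes, and Srf, Junb, Fosl1 and Hif1a between 0.22 and 0.24.

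The runs of title numbers were compared as a possible batch, which is not a comparison of the study. In limma 14 of 223 probes passed an adjusted p of 0.05 (Benjamini-Hochberg), which is 6.28%. None of the 6 regulators did (0 of 6). At an unadjusted p under 0.05 limma gave 22.9% of probes and 0 of the 6 regulators. These counts moved with the scaling: 36.8% of probes and 3 of 6 regulators (Jun, Hif1a and Fosl1) with arrays centred on their median, 24.2% and 2 of 6 (Jun and Srf) with arrays divided by their floor, and 28.3% and 1 of 6 (Jun) with quantile normalization. On the log2 scale the difference of samples 202 and 203 from the other 4 was 0.45 ± 0.23 (SE) for Jun, with a limma adjusted p of 0.237, and 0.18 ± 0.20 for Srf, with 0.592. It was -0.33 ± 0.19 for Hif1a (0.272), -0.35 ± 0.19 for Fosl1 (0.268), -0.18 ± 0.20 for Junb (0.592) and -0.11 ± 0.26 for Cited2 (0.783), all limma adjusted p-values. The median shift of all probes was -0.18. Without sample 202 or sample 203 the Jun difference was 0.90 and 0.01, so the estimate for Jun rests on sample 203.

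All 6 regulators shared the direction from sample 202 to 203 and the lowest mouse among 175 to 178. The full order of samples 175 to 178 was not shared: Srf was higher in sample 175 than in sample 178, and Cited2 was lower. Sample 203 gave a higher signal than sample 202 in 6 of 6, and sample 176 was lowest or tied for lowest among 175 to 178 in 6 of 6. The array as a whole leaned the same way: 83.9% of all probes were higher in sample 203 than in 202, and 65% were lowest or tied in sample 176. With each array centred on its median these counts were 3 of 6 and 5 of 6 regulators, beside 48.9% and 52.9% of probes.

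Covariation over mice was measured as Pearson's r of log2 signal, with Spearman's rho beside it, for the 15 pairs of regulators. Exact two-sided permutation tests over all 720 pairings of mice were run on all 24753 pairs of probes, with Benjamini-Hochberg adjustment over them. Among them 0 pairs passed an adjusted p of 0.05 (0%), and the smallest adjusted p was 0.254. The exact test cannot go below p = 0.00139 with 6 mice, and 688 pairs would have to reach that value for any to pass. Of the 15 pairs of regulators, 3 had an unadjusted p under 0.05, beside 13.7% of all probe pairs. The median r of the 15 was 0.31, and that of all probe pairs 0.37. It was 0.23 beside 0.05 with arrays divided by their floor, -0.07 beside 0.06 with arrays centred on their median, and 0.78 beside 0.48 after subtracting run means, so which of the values was larger depended on the scaling. Because samples 202 and 203 stood apart, each r is also given after subtracting the mean of its run, with pairings only within runs (48 in all, smallest possible exact p = 0.0208). Within runs every adjusted p was 0.528 or more.

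Over all 6 mice Jun and Srf had the highest r of the pairs of regulators clear of the floor. Pearson's r was 0.91 (exact permutation p = 0.0167, adjusted p = 0.254, n = 6) and rho 0.83 (exact permutation p = 0.0417, adjusted p = 0.377, n = 6). Within runs r was 0.91 (exact permutation p = 0.125). The value was 0.90 with arrays divided by their floor and 0.84 with arrays centred on their median, but 0.46 with quantile normalization. Without sample 203 r was 0.67, so its size leaned on that sample. Without samples 176 and 203, the mice farthest from the Jun median, r was 0.35. In the mice then left Jun was 1.6 per mille in sample 177 and 1.4 in each of the others. Any r of Jun there only sets sample 177 against the rest. Jun and Cited2 had an r of 0.31 (exact permutation p = 0.458, adjusted p = 0.715, n = 6) and a rho of 0.70 (exact permutation p = 0.15, adjusted p = 0.494), and within runs 0.50 (exact permutation p = 0.0833). Their r was 0.89 without sample 203, above that of Jun and Srf over the same mice, so which pair had the higher r depended on sample 203. Without samples 176 and 203 it was 0.95, which only sets sample 177, the highest for Cited2, against the rest.

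Fosl1 and Hif1a had an r of 0.91 (exact permutation p = 0.0167, adjusted p = 0.254, n = 6) and a rho of 0.95 (exact permutation p = 0.0333, adjusted p = 0.366). Junb and Fosl1 had an r of 0.85 (exact permutation p = 0.0444, adjusted p = 0.306) and a rho of 0.86 (exact permutation p = 0.0889, adjusted p = 0.446). Junb and Hif1a had an r of 0.75 (exact permutation p = 0.0667, adjusted p = 0.318) and a rho of 0.84 (exact permutation p = 0.133, adjusted p = 0.474). All of these probes were near the floor, which itself differed between arrays. Over mice the r of log2 signal with the log2 floor was 0.87 for Junb, 0.90 for Fosl1 and 0.89 for Hif1a. For Jun, Srf and Cited2 it was 0.05, 0.06 and 0.61. With arrays divided by their floor the values fell to 0.59, 0.32 and -0.07. On that scale Junb was exactly 1 in 5 mice and 0.83 in sample 176, and Fosl1 was exactly 1 in 4 mice. The r of Junb there only sets sample 176 against the rest. Within runs the pairs gave 0.80, 0.90 and 0.74 (exact permutation p = 0.125, 0.0833 and 0.125). Without the 2 mice farthest from the median of the first gene, r was 1.00, 0.71 and 0.58. In samples 175, 176, 178 and 203, left for the first pair, Fosl1 was either 0.6 or 0.7 per mille. Hif1a was either 0.8 or 0.9 there, so that this r of 1.00 rests on 1 step of the scale. The part of the floor in the values as deposited cannot be told apart from that of the mice.

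Some pairs had an r near 0 over all mice and a high r within runs. The r within runs includes the step from sample 202 to sample 203. That step was upward in 83.9% of all probes, and in 48.9% with arrays centred on their median. Its part in these values was not tested. Jun and Hif1a had an r of 0.04 (exact permutation p = 0.9, adjusted p = 0.967, n = 6) and a rho of 0.13 (exact permutation p = 0.833, adjusted p = 0.967), and within runs 0.97 (exact permutation p = 0.125). Jun and Fosl1 had -0.01 (exact permutation p = 1, adjusted p = 1) and a rho of 0.25 (exact permutation p = 0.667, adjusted p = 0.887), and within runs 0.84 (exact permutation p = 0.0417, adjusted p = 0.528), where 4.7% of all probe pairs had an unadjusted p under 0.05. With arrays centred on their median both pairs gave -0.55, and without samples 176 and 203 they gave 0.33 and 0.61. Hif1a and its cofactor competitor Cited2 had an r of 0.35 (exact permutation p = 0.400, adjusted p = 0.665, n = 6) and a rho of 0.43 (exact permutation p = 0.400, adjusted p = 0.720). It was 0.23 without samples 176 and 202 and -0.45 when arrays were divided by their floor, so no direction of covariation is given for them.

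**Figure D3:**
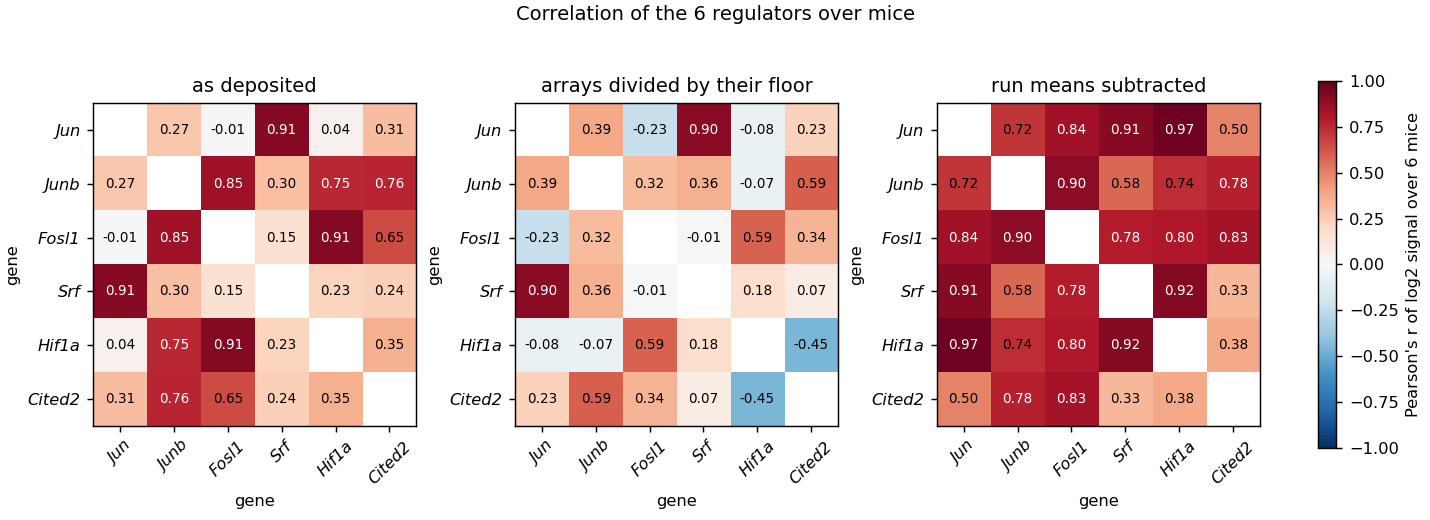
Each square gives Pearson's r of log2 signal of 2 regulators over 6 mice, on a scale from -1 (blue) to 1 (red), as deposited, with arrays divided by their floor, and with the mean of each title-number run subtracted. Jun with Srf stays at 0.90 to 0.91 in the 3 panels, while Fosl1 with Hif1a goes from 0.91 to 0.59 and Junb with Hif1a from 0.75 to -0.07 when the floor is divided out. In that panel Junb has the same value in every mouse but sample 176.

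The probes most like each clear regulator were picked by the highest r among the 54 other named probes clear in all mice, so that these r describe the choice and test nothing. For Jun they were the brighter Igf1 probe (r = 0.98), Pecam1, an endothelial adhesion molecule (0.97), and Srf (0.91). Igf1, a growth factor of muscle repair, gave 1.3, 1.2, 1.5, 1.5, 1.4 and 2.3 per mille in samples 175, 176, 177, 178, 202 and 203, and Pecam1 gave 1.5, 1.4, 1.8, 1.8, 1.5 and 2.9. In both, as in Jun, sample 203 was the highest and sample 176 the lowest. Without samples 176 and 203 the r with Jun was 0.52 for Igf1 and 0.58 for Pecam1, where Jun only sets sample 177 against the rest. The endothelial markers Pecam1, Kdr, Cdh5 and Tek summed to 7.2 per mille in sample 203 and to 4.4 to 5.4 in the others. Pecam1 and Cdh5 were highest in sample 203, at 2.9 and 2.5 per mille, while Kdr at 1.1 and Tek at 0.7 lay there below samples 177 and 178, with 1.3 and 0.9 in each. Pecam1 was clear in all mice, Cdh5 in 5, and Kdr and Tek in none. Their part in the Jun value of sample 203 was not tested. For Srf the most alike were Jun, Pecam1 (r = 0.83) and Igf1 (0.82). Without the 2 mice farthest from the Srf median the latter values turned to -0.18 and -0.52.

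For Cited2 the most alike probes were Mef2c, a transcription factor of muscle differentiation (r = 0.91), Fgfr2, a fibroblast growth factor receptor (0.90), and Vegfb, a vascular growth factor (0.89). Mef2c gave 4.8, 5.4, 8.4, 6.1, 4.8 and 5.9 per mille in samples 175, 176, 177, 178, 202 and 203, Fgfr2 2.5, 2.4, 3.9, 3.5, 2.7 and 3.3, and Vegfb 1.6, 1.7, 2.6, 2.3, 1.8 and 1.8. All peaked in sample 177. Fgfr2 ranked the 6 mice exactly as Cited2 did (rho = 1). Without samples 176 and 177, the mice farthest from the Cited2 median, r was 0.96, 1.00 and 0.86, which again describes probes picked for their r. With quantile normalization r was 0.84 for Mef2c, 0.70 for Fgfr2 and 0.84 for Vegfb.

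**Figure D4:**
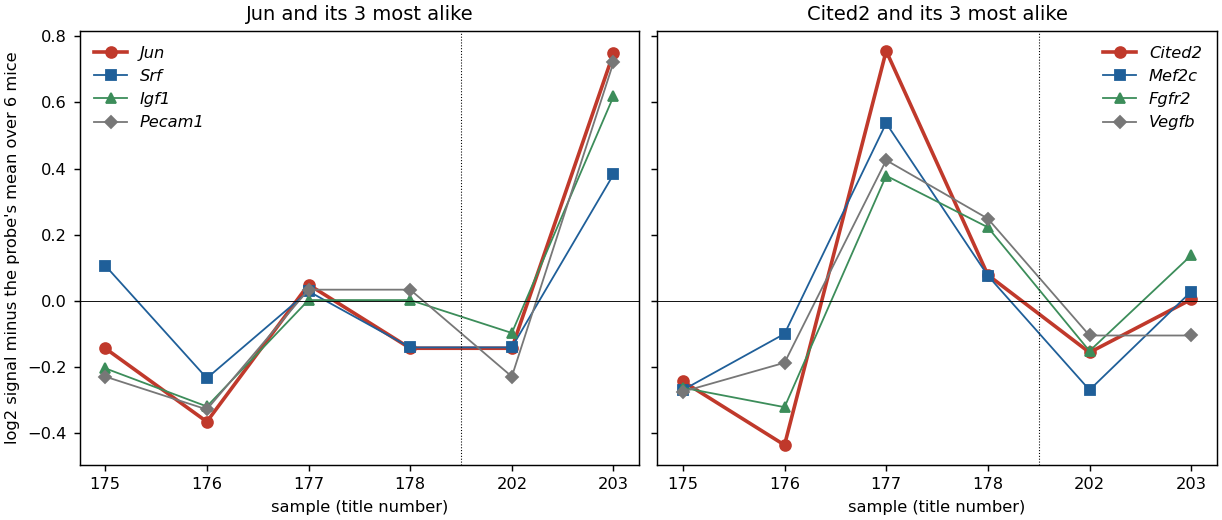
Points give log2 signal minus the mean of that probe over the 6 mice, for Jun with Srf, Igf1 and Pecam1 (left) and for Cited2 with Mef2c, Fgfr2 and Vegfb (right); lines only join points of a gene, mice have no order, and the dotted line parts the runs of title numbers. The genes on the left are highest in sample 203 and those on the right in sample 177.

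Reported target genes of these factors were read from fixed lists. Of 14 genes reported as AP-1 targets 12 were measured: Fn1, the matrix protein fibronectin, was clear in all mice, its brighter probe giving 1.63 ± 0.294 per mille (SD, n = 6), 2 were clear in some mice and 9 in none. Among the 9 were the cyclin Ccnd1 at 0.733 ± 0.0816 per mille (SD, n = 6) and the matrix proteases Mmp3, at 0.633 ± 0.151, and Mmp9, with 0.650 ± 0.0837 per mille (SD, n = 6). Over mice, the median r of the 12 with Jun was -0.01, beside 0.16 for Jun with all 222 other probes. For Fosl1 it was 0.82 beside 0.67, and for Junb 0.69 beside 0.65. Like Fosl1 and Junb, most of these targets lay near the floor. Fosl1 and Junb had an r of 0.90 and 0.87 with the floor over mice, and its part in these values was not tested.

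Of 17 genes reported as SRF targets 5 were measured, and 4 were clear in all mice. Desmin (Des), the intermediate filament of muscle, gave 24.0, 28.9, 49.7, 45.3, 29.0 and 40.0 per mille in samples 175, 176, 177, 178, 202 and 203. Myh7, the slow myosin heavy chain, gave 63.8, 83.7, 49.0, 78.9, 84.4 and 54.6 per mille, and was lowest in sample 177, where Des was highest. Itgb1, the beta chain shared by many integrins, stood at 6.95 ± 1.81 per mille (SD, n = 6), and Igf1 is given above. Myod1, a myogenic determination factor, stood at 1.02 ± 0.214 per mille (SD, n = 6), clear in 1 mouse. The r of these 5 with Srf ran from -0.76 for Myh7 to 0.82 for Igf1, with a median of 0.41 beside 0.17 for Srf with all other probes. That median is the r of Myod1, and the r of Igf1 was -0.52 without the 2 mice farthest from the Srf median. Of the 5, 4 had an r above 0, beside 67.6% of all other probes, and Myh7 was below 0.

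Of 28 genes reported as HIF targets 20 were measured, and 5 were clear in all mice: Aldoa, Aldoc, Pgk1 and Gapdh, all of glycolysis, and the growth factor Igf2. Aldoa gave 144 ± 28.8, Aldoc 3.95 ± 0.723, Pgk1 4.08 ± 0.542 and Gapdh 139 ± 11.5 per mille (SD, n = 6). A further 4 were clear in some mice and 11 in none, among them Vegfa, the hypoxia-induced vascular growth factor, at 0.9 ± 0.0894, and its receptors Flt1 at 0.9 ± 0.155 and Kdr at 1.10 ± 0.167 per mille (SD, n = 6). Over mice the median r of the 20 was 0.53 with Hif1a, beside 0.69 for Hif1a with all other probes, and 0.14 with Cited2, beside 0.41. Hif1a and the 11 targets clear in no mouse lay near the floor. Hif1a had an r of 0.89 with the floor over mice, and the part of the floor in these values was not tested. Between the runs of title numbers 2 of the 20, Igf2 and the vessel-destabilizing ligand Angpt2, were higher in samples 202 and 203 by limma (adjusted p = 0.000101 and 7.17e-06), beside 4.48% of all probes, and 0 were lower, beside 1.79%. The AP-1 and SRF targets had 0 calls in either direction (0 of 12 and 0 of 5, limma).

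**Figure D5:**
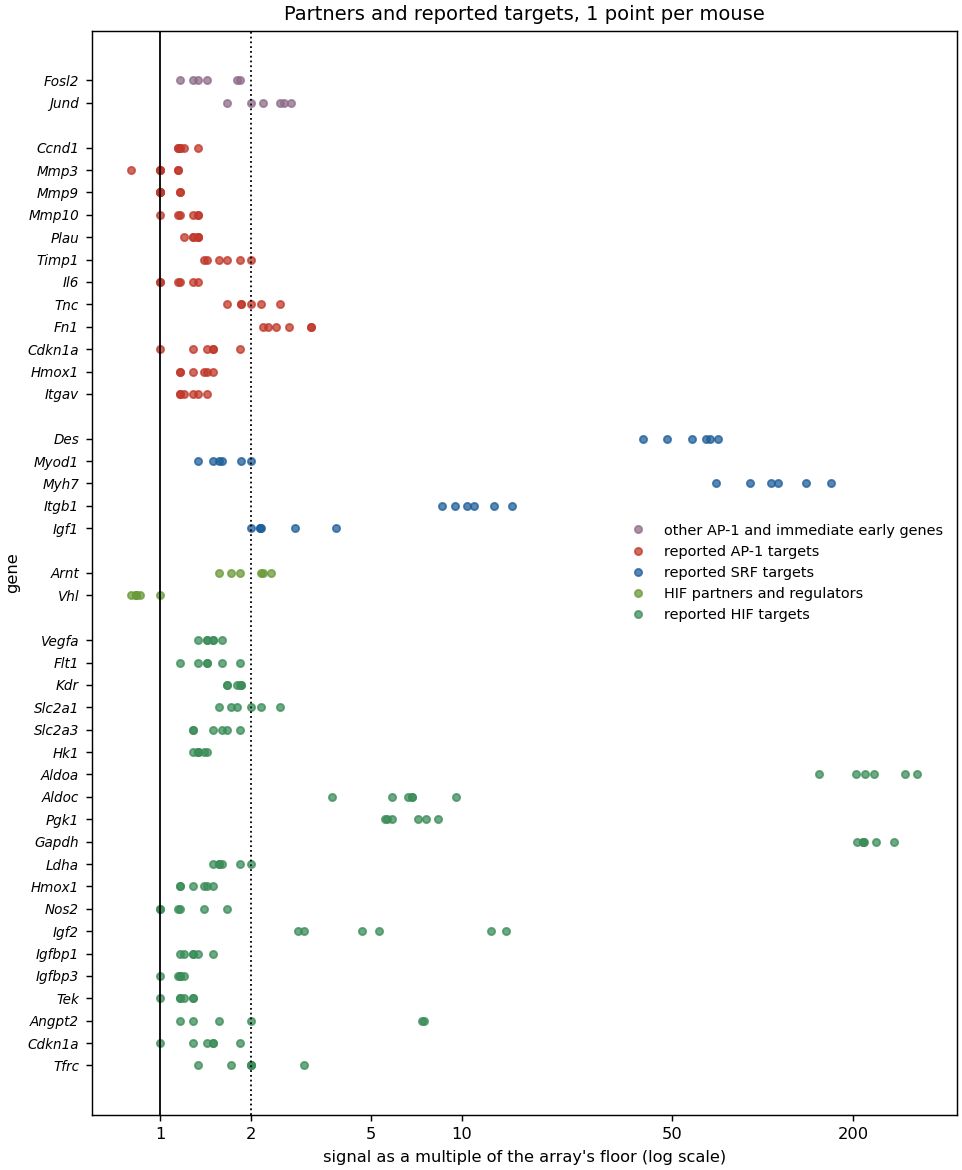
Points give the signal of each measured partner or reported target in each of the 6 mice as a multiple of the array's floor, on a log axis, coloured by list; the solid line marks the floor and the dotted line 2 times the floor. The glycolytic genes Aldoa and Gapdh and the muscle genes Des and Myh7 lie far to the right. The glycolytic genes Hk1 and Ldha lie at or left of the dotted line, and most reported AP-1 targets lie left of it.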

How the data were processed

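Soleus RNA of 6 mice was measured on DNA arrays, each mouse on its own. RNA isolated from sections of the muscle's middle part (4 microgram) was copied with gene-specific primers and radioactive dATP, per the labels' protocols. The deposited table holds a linear signal for 223 probes in each mouse, with no value at or below 0. The scanner, any background step and the scaling were not stated in the sources used. Without probes 1M and 1O the deposited signal sums to 0.999 to 1.00 per array, so values were treated as parts of that total, and a bright probe that rises lowers the others. The number of arrays limits the precision. The limma p-values set a difference against the spread between these samples, moderated over all probes, and the exact ones come from reordering the same 6 mice.

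The platform annotation named 1 gene for 205 probes and none for 18; 204 names were updated by gene number through a RefSeq table (GRCm38.p6). Igf1 and Fn1 have 2 probes each, and the brighter was used. Log2 signal was used without a pseudocount. Title-number runs were compared with limma 3.58.1 (lmFit and eBayes, R 4.3.3), and pairs of probes with exact permutation tests (Python 3.11.15, numpy 2.4.6), both adjusted over the whole table by Benjamini-Hochberg and tested on simulated data. The regulators, the gene lists, the title-number comparison and the limit of 2 times the floor were chosen with earlier results of these data known. The genes named were the 6 regulators, list genes clear in all mice or past an adjusted p of 0.05, up to 3 others per list in list order, and the 3 probes most like each clear regulator. Tissue markers beside Jun and Cited2 were added after their values were seen. Alternatives were array scalings, a pseudocount, a filter on dim probes, other floors, other measures and leaving out mice.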

Additional observations from a re-analysis of the deposited data

Results flagged for a closer look

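The highest and the lowest mouse of each regulator were compared with their nearest neighbour by Dixon's rule for 6 values (critical value 0.625 of the range), on the scale of per mille. Of 6 genes, 3 had a mouse past it, beside 24 of all 223 probes (10.8%) past the same limit at either end. Chance flags about 1 in 20 independent sets, and these sets are not independent, since they share the same 6 arrays. Jun in sample 203 lay above the next mouse by 0.714 of the range (0.628 on the log2 scale). Cited2 in sample 177 lay above the next by 0.667 of the range, but by 0.569 on the log2 scale, which is within the limit. Hif1a in sample 202 lay below the next by 0.667 of the range, which is 2 steps of 0.1 per mille (0.710 on the log2 scale).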

How the results depend on the processing

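The 3 regulators clear of the floor in all mice remained 3 at 1.5 times the floor and with the floor at the 5th percentile, and were 2 with the 20th percentile, where Jun was clear in 5 mice, and 0 at 3 times the floor, where Jun was clear in 1 mouse and Srf and Cited2 in 3 each. Leaving out each mouse in turn, or samples 202 and 203, gave 3. No regulator passed between the title-number runs in any of 12 alternatives (limma, smallest adjusted p 0.0551 for Hif1a without sample 203, assuming that the lone sample 202 varies like the rest). The adjusted p of Jun was 0.0780 with arrays divided by their floor and 0.0883 with arrays centred. No pair of regulators passed in any of 14 alternatives (smallest adjusted p 0.257, exact permutation), and with 5 mice the exact test has less room still. Quantile normalization lowered the SD of log2 signal of Junb to 0.05, Fosl1 to 0.12, Hif1a to 0.10 and Srf to 0.13. No paired analysis was possible because all samples belong to 1 group. The step of 0.1 per mille limits what can be read from Junb, Fosl1 and Hif1a.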
